A study of Mus musculus with 105 samples.

Results

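Bulk TX1072 cultures were compared between day 3 and day 4 of differentiation, which is the last interval of the time course. All genes of the bulk count table were used except the ERCC spike-in rows. The comparison rests on 6 of the 105 samples of the series, namely 3 libraries of day 3 and 3 of day 4, and 18871 of the 52016 genes passed the filter on low counts. TX1072 (clone A3) is a female F1 hybrid mouse embryonic stem cell (mESC) line with a C57BL/6 (B6) and a CAST/EiJ (Cast) X chromosome. Xist on its B6 chromosome is under a promoter that responds to doxycycline, and rtTA is inserted at Rosa26. No doxycycline is stated for these cultures. All groups were differentiated by withdrawal of 2i and LIF in medium with 10% fetal bovine serum on fibronectin. The same step was also read in TXdXicB6 and TXdXicCast, which are single clones of TX1072 that lack 773 kb around Xist on the B6 or on the Cast chromosome, with 3 libraries per line and day. Total RNA was depleted of ribosomal RNA. The TX1072 libraries were stranded and sequenced with paired reads of 50 bases, while the deletion lines were prepared with another kit and sequenced on another instrument. Replicate 1 of TX1072 came from the cell population that was also used for single cells. Levels are given as CPM, which is a gene's counts relative to the library total after scaling by TMM factors.

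When 2i and LIF are removed, mESCs leave the naive ground state and pass through a formative state, in which the de novo DNA methyltransferases are abundant, before they become able to respond to germ layer signals. In the embryo, Wnt, Nodal and BMP signals then induce the primitive streak in the posterior epiblast, where cells express T (Brachyury), Eomes and Mixl1 and give rise to mesoderm and definitive endoderm. FGF8 and the retinoic acid-degrading enzyme CYP26A1 are made in the same region.

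The 6 libraries held between 19827011 and 31989499 counts, and day 3 replicate 2 was the shallowest. This library stood apart from the others. Its mitochondrial share of counts was 8.57%, against 1.68% to 3.38% in the other 5 libraries. Lars2, which encodes a mitochondrial leucyl-tRNA synthetase, and the small RNA models Gm23935 and Gm24187 together took 1.75% of its counts, against at most 0.0114% in the other 5. Lars2 had 14980 CPM in this library, 21.7 and 15.4 CPM in the other day 3 libraries, and 19.6, 13.0 and 18.1 CPM at day 4. Its log2 fold change of -8.21 (edgeR adjusted p = 0.00389) was -0.14 (edgeR adjusted p = 0.918) without that library. The main counts that this library moves are also given without it.

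At day 4, 3014 genes (16.0% of those tested) were higher than at day 3 and 2237 (11.9%) were lower, at an adjusted p under 0.05 from edgeR's quasi-likelihood test, so that 27.8% changed in either direction. This main fit did not pair the replicates by number. With the replicate number as a block 3330 genes were higher and 2706 lower. Genes named below for the size of their fold were chosen for replicates that did not overlap, so that for them the lack of overlap follows from the choice. The fold change was at least 2 for 1037 higher and 903 lower genes, and at least 4 for 184 and 193. The median log2 fold change over all tested genes was 0.003. Of the genes called, 5129 had CPM values that did not overlap between the days, while 45.4% of all tested genes did not overlap. Without day 3 replicate 2, 2293 genes were higher and 1683 lower. The plot of fold change against level shows several streak genes near the upper edge and Lars2 near the bottom.

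**Figure D1:**
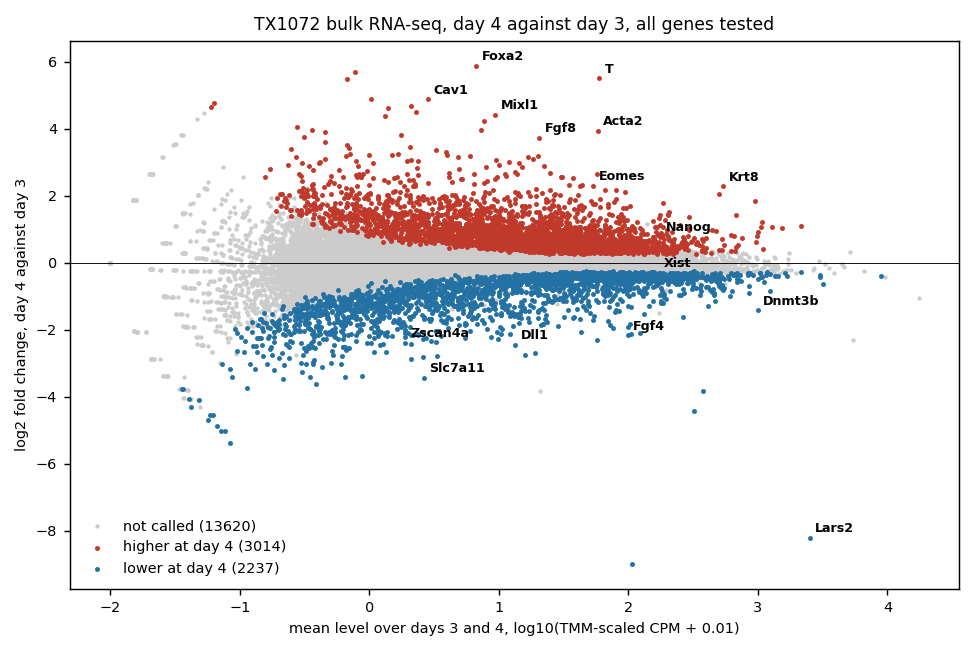
Each point is 1 of 18871 tested genes, with the log10 of its mean CPM over days 3 and 4 (plus 0.01) on the horizontal axis and its log2 fold change, day 4 against day 3, on the vertical axis. Red points (3014) were higher and blue points (2237) lower at an edgeR adjusted p under 0.05, and grey points were not called. Foxa2 and T stand near the top at 5.88 and 5.50, and Lars2 at -8.21 rests on 1 day 3 library.

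Genes of the primitive streak and mesendoderm rose together. Of 18 listed genes 16 were tested, and 12 rose, none fell and 4 did not pass the test, with a median log2 fold change of 2.47. The members summed to 262, 191 and 230 CPM in replicates 1, 2 and 3 at day 3 and to 686, 508 and 455 CPM at day 4, and Nodal was the most abundant. T, the transcription factor Brachyury that marks nascent mesoderm, had 3.37, 1.36 and 2.78 CPM in replicates 1, 2 and 3 at day 3 and 181, 98.4 and 70.3 CPM at day 4. Every day 4 library was above every day 3 library, and replicate 1 was the highest on both days. The log2 fold change was 5.50 ± 0.33 (SE, edgeR adjusted p = 1.01e-08, n = 3 per day). T had been at 10.6 CPM on average at day 0 and had been at 0.302 CPM at day 1, so the gene came back rather than appearing for the first time.

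Foxa2, a forkhead factor of the anterior streak and endoderm, had the largest increase among the genes named by fold. It had 0.359, 0.163 and 0.126 CPM at day 3 and 28.9, 5.43 and 4.89 CPM at day 4. The days did not overlap, and day 4 replicate 1 was far above the other 2 libraries. The log2 fold change was 5.88 ± 0.70 (SE, edgeR adjusted p = 9.77e-06). Mixl1, a homeobox gene of the streak, had 0.825, 0.543 and 1.07 CPM at day 3 and 35.0, 9.15 and 9.72 CPM at day 4, again with replicate 1 highest (log2 fold change 4.41 ± 0.48, edgeR adjusted p = 3.93e-06).

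Eomes, a T-box factor needed for endoderm and mesoderm, had 23.4, 15.8 and 14.9 CPM at day 3 and 121, 78.2 and 67.2 CPM at day 4. It rose by 2.30 ± 0.21 on the log2 scale (SE, edgeR adjusted p = 5.09e-07), and its days did not overlap either. Eomes was already present earlier, with a mean of 32.6 CPM at day 1. Wnt3, the ligand that induces the streak, had 13.3, 6.74 and 11.2 CPM at day 3 and 39.1, 37.5 and 36.8 CPM at day 4, with little spread among the day 4 libraries (log2 fold change 1.85 ± 0.20, edgeR adjusted p = 4.14e-06). Among the 4 members that did not pass, Nodal had a mean of 187 CPM at day 3 and 215 CPM at day 4, and Tbx6, a factor of presomitic mesoderm, had 0.414 and 0.387 CPM. Mesp1, the earliest cardiac mesoderm factor, failed the filter. It had 0 counts in each day 3 library, where a count of 0 allows up to 0.108, 0.163 and 0.0947 CPM (3 counts, counting error only), and 1.30, 0.127 and 0.090 CPM at day 4.

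Gsc, Lhx1 and Cer1 differed several-fold among the day 4 libraries. Gsc, the homeobox gene Goosecoid, had 9.02 CPM in day 4 replicate 1 and 1.84 and 2.22 CPM in replicates 2 and 3. Lhx1, a LIM homeobox gene of the organizer, had 4.85, 0.508 and 0.660 CPM. Cer1, a secreted inhibitor of Nodal, BMP and Wnt, had 9.91, 1.14 and 1.05 CPM. All 3 genes were higher than in any day 3 library, and replicate 1 was the highest in each. For Lhx1 and Cer1 the lack of overlap follows from the limits that define the genes that appear last, given below. Over the 12 streak genes that rose, day 4 replicate 1 was the highest library for 10, while it was the highest for 30.5% of all 3014 genes that rose. Without this library 11 of 17 tested streak genes rose (median 2.01), and Evx1 was no longer called (edgeR adjusted p = 0.0879). Without day 3 replicate 2 it was again 11 of 17 (median 2.20), and Evx1 was again lost (edgeR adjusted p = 0.0789). In bulk RNA, more cells of a type and more RNA per cell cannot be told apart.

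**Figure D2:**
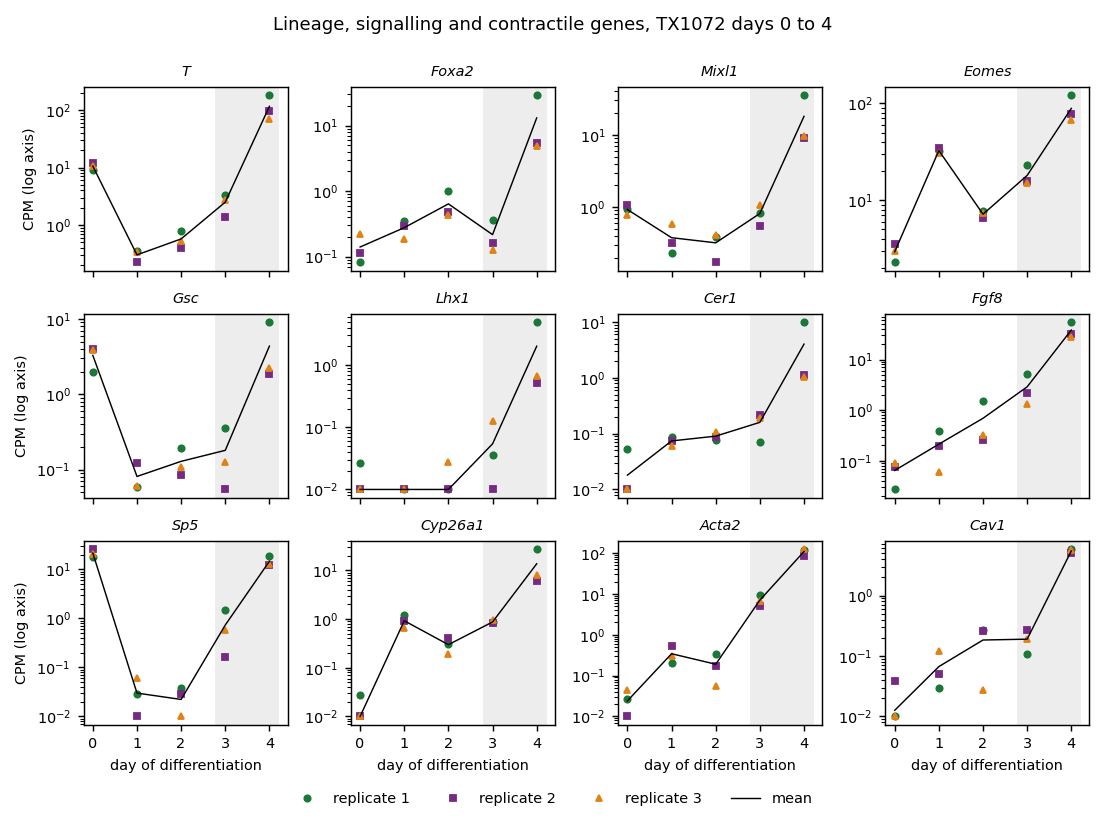
CPM on a log axis against the day of differentiation for 12 genes in the 3 TX1072 replicates (symbols) with the mean over replicates (line). Values under 0.01 are drawn at 0.01, and days 3 and 4 are shaded. T and Sp5 return after a loss at day 1, Fgf8 and Acta2 climb over several days, and Lhx1, Cer1 and Cav1 stay under 0.5 CPM until day 4.

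Wnt pathway genes rose along with the streak genes. Of 21 tested ligands, inhibitors and targets, 14 rose, 1 fell and 6 did not pass, with a median log2 fold change of 1.31. Day 4 replicate 1 was the highest library for 10 of the 14 that rose, and without it 14 of 22 rose (median 1.08). Sp5, a direct Wnt target that encodes a zinc finger factor, had 1.47, 0.163 and 0.569 CPM at day 3 and 18.99, 12.5 and 12.7 CPM at day 4 (log2 fold change 4.23 ± 0.38, edgeR adjusted p = 5.11e-07). Its days were far apart in all libraries, although the mean at day 0, in the presence of the GSK3 inhibitor of 2i, was still higher at 21.6 CPM. Axin2, the feedback inhibitor that is used as a Wnt reporter, went from 18.4, 13.4 and 14.4 CPM to 46.5, 55.7 and 43.1 CPM (log2 fold change 1.65 ± 0.15, edgeR adjusted p = 6.36e-07). The secreted inhibitors Notum and Dkk1 rose by 2.29 and 2.55 on the log2 scale. Lef1, which encodes a transcription factor of the pathway, was the member that fell, from a mean of 24.5 CPM to 11.3 CPM (log2 fold change -1.12).

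The promoter of Sp5 is shown because the gene returned with the Wnt group, and that of Myl9 because it did not rise in this step after a rise in the step before. The 250 bases before the RefSeq start site were read from GRCm38.p6, on the plus strand at chr2:70474673-70474922 for Sp5 and at chr2:156775214-156775463 for Myl9. Capitals mark a match to CTTTGAT, the core that TCF and LEF factors bind, and to the CArG box, which SRF binds. The matches start 104 and 161 bases before the gene start.
Sp5: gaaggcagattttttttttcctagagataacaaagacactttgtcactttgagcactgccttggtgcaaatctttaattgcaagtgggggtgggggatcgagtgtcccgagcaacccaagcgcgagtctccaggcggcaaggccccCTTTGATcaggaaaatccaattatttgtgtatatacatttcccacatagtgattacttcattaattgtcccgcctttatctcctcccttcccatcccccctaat
Myl9: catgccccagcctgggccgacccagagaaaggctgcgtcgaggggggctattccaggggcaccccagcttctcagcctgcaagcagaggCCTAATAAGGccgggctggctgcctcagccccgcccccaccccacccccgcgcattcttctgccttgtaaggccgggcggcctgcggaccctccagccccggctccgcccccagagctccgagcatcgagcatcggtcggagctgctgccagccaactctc
Over windows of 300 bases (250 before to 50 after the start), read on both strands, CTTTGAT was in 3.07% of 12523 tested genes with a window, in 2.41% of higher genes and in 3.43% of lower genes. It was in 3 of 13 Wnt genes with a window (Sp5, Wnt11 and Wnt5b) and in 0 of 17 smooth muscle and actin genes. The CArG box was in 1.60% of all windows, in 1.85% of higher and 1.62% of lower genes, in 4 of 17 genes of the smooth muscle and actin list (Cnn2, Myl9, Srf and Vcl) and in 2 of 13 Wnt genes (Lef1 and Tcf7). Of the other motifs searched, TATAAA was in 9.42% of all windows, in 4 of 13 Wnt genes and in 3 of 17 smooth muscle and actin genes. The same values were 8.16%, 3 of 13 and 0 of 17 for AGATAA and 14.7%, 1 of 13 and 8 of 17 for CATTCC. A match describes the letters in the window and is no evidence of binding.

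Genes of other signaling pathways moved in both directions. Of the 20 tested FGF ligands and ERK feedback genes, 4 rose and 7 fell (median -0.11). Fgf8 had 5.13, 2.23 and 1.29 CPM at day 3 and 54.2, 32.3 and 28.1 CPM at day 4, and rose by 3.72 ± 0.47 on the log2 scale (SE, edgeR adjusted p = 1.63e-05). Fgf4, the ligand made by pluripotent cells, moved the other way, from 154, 170 and 161 CPM to 29.4, 37.7 and 40.7 CPM (log2 fold change -2.17 ± 0.14, edgeR adjusted p = 1.17e-08).

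Of 16 tested genes of the Nodal and TGF-beta pathway 9 rose and 2 fell (median 0.40), and 7 rose without day 3 replicate 2. The ligands Tgfb1, Tgfb2 and Tgfb3 rose by 2.41, 1.68 and 2.03 on the log2 scale. Of 15 tested BMP genes 7 rose and 2 fell (median 0.55). The ligands Bmp2 and Bmp4 and the antagonists Nog, Chrd and Fst were among those that rose. Without day 3 replicate 2 the number that rose was 4, and the calls of Bmp4 and Chrd were lost, while that of Bmp2 was lost without day 4 replicate 1 or day 3 replicate 3. Id1 and Id3, which encode inhibitors of basic helix-loop-helix factors and are BMP targets, fell by 1.19 and 1.41 on the log2 scale. Cyp26a1, a retinoic acid hydroxylase, had 0.861, 0.815 and 0.948 CPM at day 3 and 27.2, 6.07 and 7.92 CPM at day 4 (log2 fold change 3.95 ± 0.47, edgeR adjusted p = 9.74e-06). Day 4 replicate 1 again was the highest. In the retinoic acid list 5 genes rose and 4 fell of 15 tested, and those that fell included the binding protein gene Crabp2 (log2 fold change -1.69) and the receptor gene Rarb (-1.79).

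Mesoderm, endoderm and trophoblast lists held more higher than lower genes. Some genes belong to several lists, so the counts of the lists are not independent. Foxa2 (log2 fold change 5.88) is in the streak and the definitive endoderm list. Gata6 (3.04) is in the lateral and cardiac mesoderm list and in the primitive and visceral endoderm list. In the lateral and cardiac mesoderm list 13 of 19 tested genes rose and 1 fell (median 1.40). Kdr, the VEGF receptor of mesoderm and endothelium, had 0.287, 0.217 and 0.221 CPM at day 3 and 1.57, 1.49 and 1.53 CPM at day 4 (log2 fold change 2.63 ± 0.32, edgeR adjusted p = 1.06e-05). Its 3 day 4 libraries agreed closely, in contrast to Foxa2. Hand1, a transcription factor gene of the mesoderm, rose by 1.99 on the log2 scale. The list had 10 higher genes without day 3 replicate 2, and the calls of Gata4, Bmp4 and Meis1 were lost.

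In the definitive endoderm list 6 of 13 tested genes rose and 1 fell (median 0.71), and 3 of those 6 are the claudin genes Cldn4, Cldn6 and Cldn7, which encode tight junction proteins of many epithelia. The number that rose was 4 without day 3 replicate 2 and also 4 without day 4 replicate 1, where none fell. Cldn6 and Sox17 lost their calls in both. Cldn6 lost its call without any one of the 6 libraries. Sox17, the endoderm factor that defines the list, had 0.287, 0.163 and 0.411 CPM at day 3 and 1.88, 0.667 and 0.60 CPM at day 4. The days did not overlap (log2 fold change 1.77 ± 0.52, edgeR adjusted p = 0.0163), but the call was lost without day 4 replicate 1 (edgeR adjusted p = 0.135) or without day 3 replicate 2 (edgeR adjusted p = 0.0627), and also without day 3 replicate 1. In the primitive and visceral endoderm list 12 of 22 tested genes rose and 2 fell (median 0.66), and without day 4 replicate 1 10 of 23 rose and 1 fell. The lowest log2 fold change was -2.34, the same value as in the definitive endoderm list. From day 2 to day 3, 10 genes of the primitive and visceral list had risen and 2 had fallen (median 0.62). The basement membrane collagen genes Col4a1 and Col4a2 rose by 1.61 and 2.02 on the log2 scale. Of the serum protein genes on the list, Afp had means of 0.111 and 0.140 CPM at days 3 and 4, Ttr of 0 and 0.0220 CPM and Apoa1 of 0.131 and 0.0420 CPM, and none of them passed the filter. Apoe, which many cell types express, had 545 and 576 CPM and was not called.

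In the trophoblast list 9 of 14 tested genes rose and 1 fell (median 1.25), led by keratin genes and Eomes, which other epithelia and the streak also express. From day 2 to day 3, 11 of the 14 had risen and 1 had fallen (median 1.28). The placental hormone genes Prl3d1 and Prl2c2 had no counts on either day, and Cdx2 did not pass (1.64 and 2.10 CPM). In the list of blood and endothelium 5 of 16 tested genes rose and 4 fell (median -0.39). Flt1, a VEGF receptor gene, rose by 2.32 on the log2 scale, while Lmo2, a factor gene of blood progenitors, fell by 1.27 on the log2 scale, and the embryonic globin genes Hbb-bh1 and Hbb-y were at 0 on both days.

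Of 15 tested neural genes 2 rose, 3 fell and 10 were not called (median 0.07). The share called was 33.3%, beside 27.8% over all tested genes. The members summed to 257, 270 and 250 CPM in replicates 1, 2 and 3 at day 3 and to 282, 316 and 321 CPM at day 4. The neural genes named next are ones that fell. Pax6, a factor of the neural plate and eye, had 6.71, 2.28 and 2.65 CPM at day 3 and 1.30, 0.540 and 0.840 CPM at day 4 (log2 fold change -2.14 ± 0.36, edgeR adjusted p = 2.94e-04). Sox1, which marks neural progenitors, fell by 1.67 on the log2 scale, and Dll1, a Notch ligand, had 22.1, 21.2 and 24.7 CPM at day 3 and 3.42, 4.76 and 4.29 CPM at day 4 (log2 fold change -2.45 ± 0.14, edgeR adjusted p = 5.06e-09). The days of all 3 genes were apart. Of 26 tested Hox genes none rose and 1 fell, while Hoxd1 rose with replicates as a block and Hoxc13 without day 4 replicate 1. The gene that fell was Hoxd13, with means of 1.99 and 0.921 CPM, and its call was lost without day 3 replicate 2 (edgeR adjusted p = 0.0561) or without day 4 replicate 1 (edgeR adjusted p = 0.0858), and also without day 3 replicate 1 or day 4 replicate 2.

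The counts of all lists are shown in the plot of the shares of members that were called.

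**Figure D3:**
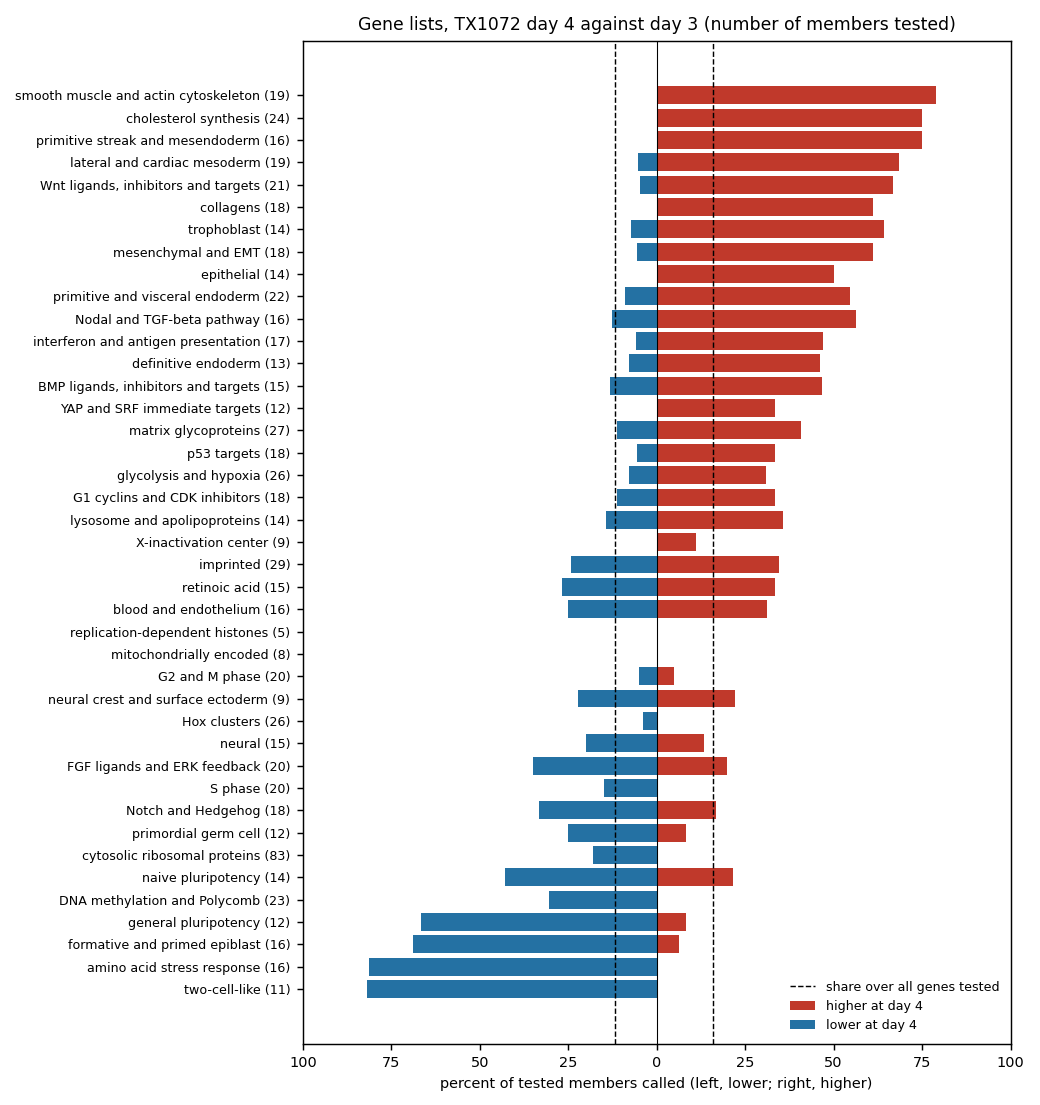
Share of the tested members of each gene list that was called higher (right, red) or lower (left, blue) at day 4 than at day 3, in percent, with the number tested in brackets. Dashed lines mark the shares over all tested genes, 16.0% higher and 11.9% lower. The smooth muscle and actin list extends farthest to the right (15 of 19) and the two-cell-like list farthest to the left (9 of 11).

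Genes of the contractile cytoskeleton rose, and most had begun to rise earlier. Of 19 tested smooth muscle and actin genes 15 rose and none fell (median 0.78), and in the step from day 2 to day 3, which shares the day 3 libraries, 17 had risen (median 1.29). Acta2, smooth muscle alpha-actin, had 9.51, 5.05 and 6.51 CPM at day 3 and 120, 82.95 and 123 CPM at day 4 (log2 fold change 3.94 ± 0.25, edgeR adjusted p = 1.05e-08). Tagln, which encodes the actin-binding protein transgelin, had 192, 143 and 160 CPM at day 3 and 402, 414 and 443 CPM at day 4. It rose by 1.35 ± 0.16 in the last step and by 5.71 in the step before. Myl9, the regulatory light chain of myosin, had 34.7, 33.1 and 30.5 CPM at day 3 and 27.0, 27.8 and 32.2 CPM at day 4, and was not called (edgeR adjusted p = 0.390) after a rise of 3.21 from day 2 to day 3. Its days overlapped.

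Collagen, mesenchymal and epithelial lists held more higher than lower genes. They had already done so from day 2 to day 3, a step that shares the day 3 libraries. In that step 10, 10 and 8 of their genes rose and 1, 3 and 0 fell (medians 1.12, 0.55 and 0.64). Of 18 tested collagen genes 11 rose and none fell (median 1.14), with Col1a1 and Col12a1 at 2.84 and 2.79 on the log2 scale. Of 27 tested genes of matrix glycoproteins 11 rose, 3 fell and 13 were not called (median 0.37). Of 18 tested mesenchymal genes 11 rose and 1 fell (median 0.65). Snai1, the repressor of E-cadherin, and Cdh2, N-cadherin, rose by 1.46 and 1.35 on the log2 scale. Of 14 tested epithelial genes 7 rose and none fell (median 0.44). The keratin gene Krt8 had 231, 166 and 155 CPM at day 3 and 1030, 835 and 826 CPM at day 4 (log2 fold change 2.29 ± 0.22, edgeR adjusted p = 1.05e-06). Its partner Krt18 rose by 2.05 on the log2 scale. Neither keratin overlapped between the days.

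The largest increases in absolute CPM included those of Slc2a3, a glucose transporter, of Ahnak, a large scaffold protein, of Flna, an actin cross-linker, and of the imprinted RNA H19. H19 had 745, 637 and 572 CPM at day 3 and 1554, 1454 and 1501 CPM at day 4 (log2 fold change 1.21, edgeR adjusted p = 6.48e-05). Of 24 tested genes of cholesterol synthesis and uptake 18 rose and none fell (median 0.56). Stard4, a sterol transfer protein, rose by 1.12 on the log2 scale. The number was 13 without day 3 replicate 2. Of the 12 largest increases the remaining genes were Ltb, Wnt7a, Apln, F5 and Ccn4. Apln, the apelin ligand, had 23.3 CPM in day 4 replicate 1 and 5.12 and 4.14 CPM in the other libraries, while F5, coagulation factor V, had 26.5, 43.6 and 37.7 CPM.

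Genes that appear last were defined as those under 0.5 CPM in each of the 12 libraries of days 0 to 3 and at 0.5 CPM or more in each day 4 library. Of 89 such genes 68 passed the test, and 9 of these are predicted gene models. These limits use the same values as the test, so the count is a description. Without day 3 replicate 2 the calls numbered 58, and without day 4 replicate 1 they numbered 59. Cav1, caveolin-1 of membrane caveolae, was the most abundant at day 4. It had 0.108, 0.272 and 0.190 CPM at day 3 and 5.81, 4.96 and 5.61 CPM at day 4, which is tight among replicates (log2 fold change 4.88 ± 0.44, edgeR adjusted p = 5.04e-07). The other 11 with the highest day 4 level were Cer1, Serpinb8, Fam90a1b, Ccdc80, Slc34a2, Ptprb, Lhx1, Tnfrsf11b, Slpi, Tshr and Wnt2b.

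Lineage and signaling genes were part of this set. Gata6, an endoderm and cardiac factor, had 0.287, 0.0544 and 0.126 CPM at day 3 and 2.90, 0.699 and 0.60 CPM at day 4, with replicate 1 highest (log2 fold change 3.04 ± 0.60, edgeR adjusted p = 0.00114). Ccdc80, a secreted matrix protein, had 0.215, 0.109 and 0 CPM at day 3 and 3.04, 2.89 and 1.98 CPM at day 4. Wnt2b, Wnt9b and Wnt10b all appeared, as did the ligand genes Tgfb3 and Bmp2 and the retinaldehyde dehydrogenase gene Aldh1a1. Several lineage genes with large folds, Foxa2 among them, were outside the set because a library of an earlier day was not under the limit. T, Gsc and Sp5 had means of 10.6, 3.28 and 21.6 CPM at day 0, and Eomes and Kdr had means of 32.6 and 8.48 CPM at day 1.

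The opposite set held genes at 1 CPM or more in each library of days 0 to 3 and under 1 CPM in each day 4 library. Of 51 such genes 48 passed the test, and 10 of these are predicted models. In the primordial germ cell list 1 of 12 tested genes rose and 3 fell (median -0.09). Among the genes that leave last, Piwil1, which encodes a piRNA-binding protein, had 1.61, 1.96 and 1.33 CPM at day 3 and 0.273, 0.349 and 0.420 CPM at day 4, Gtsf1 and Terb2 followed the same course, and Gbx2, a homeobox gene of the early epiblast, fell by 1.21 on the log2 scale.

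Pluripotency and epiblast genes fell, but unequally. Of 12 tested genes of general pluripotency 8 fell and 1 rose (median -0.55), and of 16 formative and primed epiblast genes 11 fell and 1 rose (median -0.62). In the general list 6 fell and none rose without day 3 replicate 2, and 5 fell and none rose without day 4 replicate 1. In the formative list 9 fell without either library, and 3 rose with replicates as a block. The de novo DNA methyltransferase gene Dnmt3a had 374, 422 and 393 CPM at day 3 and 131, 128 and 128 CPM at day 4 (log2 fold change -1.61 ± 0.10, edgeR adjusted p = 7.33e-09). Dnmt3b had 1445, 1566 and 1350 CPM at day 3 and 631, 504 and 494 CPM at day 4 (log2 fold change -1.42 ± 0.13, edgeR adjusted p = 5.68e-07). Both genes were at their highest mean at day 2, and neither overlapped between days 3 and 4. Dnmt1, the maintenance enzyme, did not pass (373 and 376 CPM).

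Pou5f1 (Oct4) was still abundant, with 834, 818 and 836 CPM at day 3 and 552, 550 and 573 CPM at day 4 (log2 fold change -0.57 ± 0.12, edgeR adjusted p = 0.00218). Sox2, its partner factor, had 114, 115 and 77.6 CPM at day 3 and 44.5, 40.1 and 60.1 CPM at day 4 (log2 fold change -1.08 ± 0.22, edgeR adjusted p = 0.00115). Nanog rose instead, from 163, 122 and 108 CPM to 199, 225 and 244 CPM (log2 fold change 0.77 ± 0.17, edgeR adjusted p = 0.00231), after a minimum of 55.1 CPM at day 2. All 3 genes had days that did not overlap. In the naive list 3 of 14 tested genes rose (Nanog, Tbx3 and Tfcp2l1) and 6 fell (median -0.06), and the call of Tbx3 was lost without day 3 replicate 2.

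**Figure D4:**
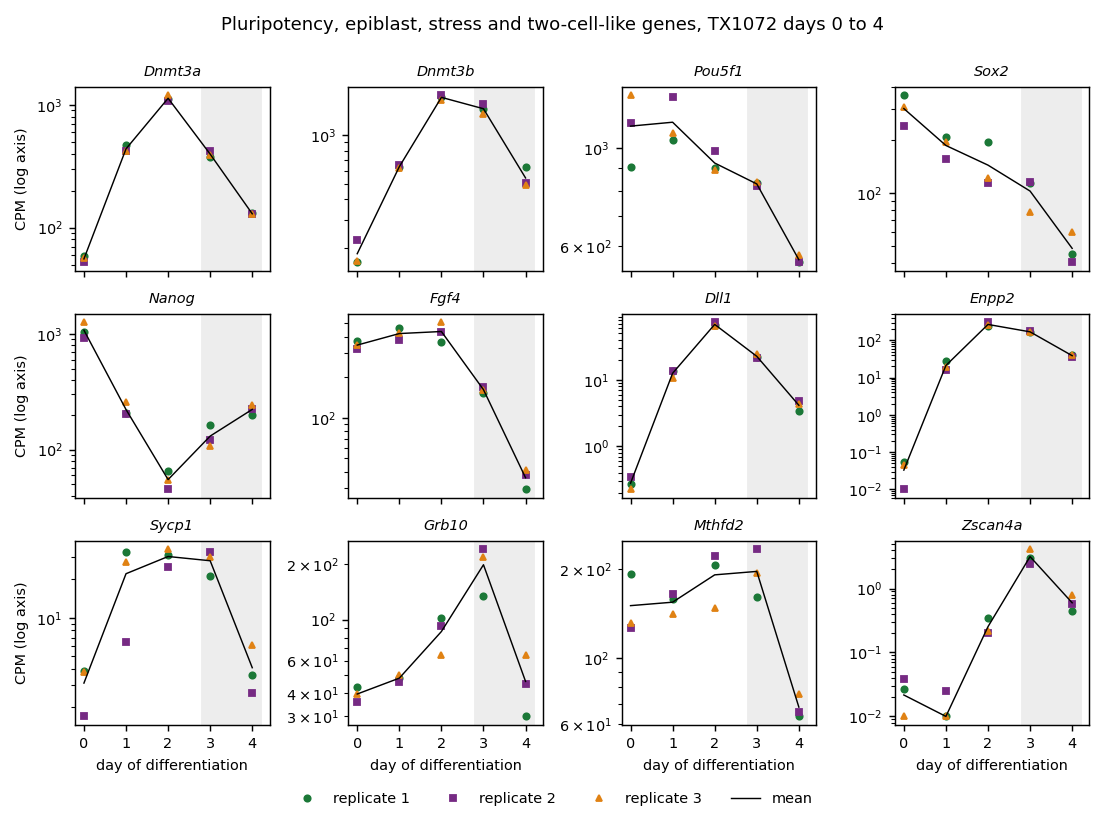
CPM on a log axis against the day of differentiation for 12 genes in the 3 TX1072 replicates (symbols) with the mean (line). Values under 0.01 are drawn at 0.01, and days 3 and 4 are shaded. Dnmt3a, Dnmt3b, Dll1 and Enpp2 peak at day 2, Zscan4a peaks at day 3 and Nanog has its minimum at day 2 and is higher at day 4 than at day 3.

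Among the 12 largest decreases were the meiotic genes Sycp1 and Hormad1. Sycp1, a component of the synaptonemal complex, had 21.2, 32.3 and 29.9 CPM at day 3 and 3.59, 2.57 and 6.09 CPM at day 4 (log2 fold change -2.76 ± 0.44, edgeR adjusted p = 1.79e-04). Enpp2, which encodes autotaxin, fell by 2.12 ± 0.17 on the log2 scale. Grb10, an imprinted adaptor of growth factor receptors, had 135, 241 and 220 CPM at day 3 and 29.9, 44.6 and 64.3 CPM at day 4 (log2 fold change -2.10 ± 0.24, edgeR adjusted p = 6.46e-06). The remaining genes of this set were Chac1, Dll1, Slc6a9, Aldh1l2, Fgf4, Slc5a11, Mcf2 and Ccno.

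The amino acid stress response, which ATF4 drives when amino acids are limiting, fell as a list. Of 16 tested genes 13 fell and none rose (median -0.76), and without day 3 replicate 2 the number was 10. Slc7a11, the cystine transporter, had 4.77, 4.62 and 5.09 CPM at day 3 and 0.342, 0.349 and 0.630 CPM at day 4 (log2 fold change -3.43 ± 0.31, edgeR adjusted p = 5.09e-07). Mthfd2, an enzyme of mitochondrial folate metabolism, had 162, 234 and 195 CPM at day 3 and 63.7, 65.9 and 75.9 CPM at day 4 (log2 fold change -1.52 ± 0.18, edgeR adjusted p = 7.31e-06). Chac1, a glutathione-degrading enzyme, varied more at day 3, with 6.56, 55.5 and 36.1 CPM, and had 3.55, 5.56 and 5.91 CPM at day 4. Its replicates did not overlap between the days, although day 3 replicate 1 was close to the highest day 4 library.

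Genes of the two-cell-like state, which marks a rare subset of mESCs with transcripts of the early embryo, had risen to day 3 and fell again. Of 11 tested genes 11 rose from day 2 to day 3, and 9 fell and none rose from day 3 to day 4 (median -1.75). These steps share the day 3 libraries. Zscan4a had 2.98, 2.39 and 4.11 CPM at day 3 and 0.444, 0.572 and 0.780 CPM at day 4 (log2 fold change -2.40 ± 0.32, edgeR adjusted p = 2.86e-05). The Zscan4 genes are near-identical copies, and only uniquely aligned reads were counted. Reads that fit several copies were thus left out, so the levels may be too low. Such copies are also not independent members of the list. Of 83 tested genes of cytosolic ribosomal proteins 15 fell and none rose (median -0.28), while 35 fell with replicates as a block, 6 without day 4 replicate 1 and 11 without day 3 replicate 2. Genes of S phase (3 of 20 lower, none higher) and of G2 and M phase (1 higher and 1 lower of 20, or 1 and 3 with the block and none in either direction without day 3 replicate 2) were near or below the shares over all genes.

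The last step was also set against the steps before it, in the same fit. The number of genes called was 8863 (47.0%) from day 0 to day 1, 7403 (39.2%) from day 1 to day 2, 5033 (26.7%) from day 2 to day 3 and 5251 from day 3 to day 4. The steps share libraries, so these counts are not independent. From day 2 to day 3 the number was 3340, 3838 and 2590 without replicates 1, 2 and 3. In the last 2 steps 1124 genes rose both times and 765 fell both times, while 165 rose in the last step after falling and 168 fell after rising. The difference between the steps itself was called for 1198 genes (6.35%), of which 621 were higher and 577 lower in the last step. This number was 1053 without day 4 replicate 1, 508 without day 3 replicate 2 and 453, 395 and 132 without replicates 1, 2 and 3 on all days. Agpat3, an acyltransferase of phospholipid synthesis, had a mean of 34.3 CPM at day 2, 35.1, 34.1 and 32.5 CPM at day 3 and 127, 132 and 119 CPM at day 4 (log2 fold change 1.89 ± 0.10, edgeR adjusted p = 1.07e-09).

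Xist and the X chromosome were examined at the same step, since the study follows X inactivation. Xist, the RNA that coats the inactive X, had 153, 170 and 233 CPM at day 3 and 181, 125 and 152 CPM at day 4. The days overlapped, and the log2 fold change of -0.28 ± 0.25 did not pass (edgeR adjusted p = 0.451). Tsix, its antisense transcript, had means of 11.1 and 7.92 CPM and did not pass (edgeR adjusted p = 0.0764). It was called under DESeq2, with no filter on low counts and without day 3 replicate 1. Of 9 tested genes of the X-inactivation center 1 rose and none fell, while 2 fell with replicates as a block. Of 736 tested X-linked genes 117 (15.9%) rose and 130 (17.7%) fell (median -0.06), and of 17854 autosomal genes 16.1% rose and 11.6% fell (median 0.005). The difference between the chromosomes was not tested.

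X-linked genes took 4.72% ± 0.27 of the counts at day 3 and 4.93% ± 0.18 at day 4 (SD, n = 3, exact permutation test, two-sided, p = 0.6), and the difference of 0.209 percentage points was 0.0521 without day 3 replicate 2. Without Xist, the B6 share of their allele-specific counts was 51.1%, 50.8% and 51.1% in the day 3 libraries. At day 4 it was 49.3%, 49.7% and 49.8%, which is below every day 3 value, with a difference of -1.36 percentage points (exact permutation test, two-sided, p = 0.1, the smallest that 3 against 3 allows). The B6 share of Xist was 45.2%, 53.6% and 47.8% in replicates 1, 2 and 3 at day 3. It was 42.3%, 48.7% and 44.6% at day 4, which is lower in each of the 3 pairs although the days overlapped. The means were 48.9% ± 4.29 and 45.2% ± 3.27 (SD, n = 3, exact permutation test, two-sided, p = 0.4), and within pairs the exact sign-flip test gave p = 0.25, the smallest that 3 pairs allow.

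The alleles of 154 of 13222 tested genes (1.16%) changed unequally in this step by the edgeR test of allele by day, 65 toward B6 and 89 toward Cast. The number was 76, 77 and 31 without replicates 1, 2 and 3. Of 451 tested X-linked genes 6 were called, all toward Cast. Plekhf2, which encodes an endosomal protein, had B6 shares of 71.4%, 73.9% and 73.9% at day 3 and of 56.1%, 58.8% and 60.0% at day 4 (log2 ratio change -0.95 ± 0.08, edgeR adjusted p = 5.24e-12), with its total level not called. Zc3hav1, an antiviral zinc finger protein, moved the other way, from 27.1%, 24.1% and 24.7% to 45.9%, 40.5% and 41.2% (log2 ratio change 1.11 ± 0.11, edgeR adjusted p = 8.42e-10). Neither gene overlapped between the days. Sec24d, Gpd2 and Spp1 followed by p-value, all 3 toward Cast.

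The deletion lines shared no library with TX1072, so their values at the same step are independent. Of 19885 genes tested there, 1676 (8.43%) rose and 1489 (7.49%) fell in TXdXicB6, and 2019 (10.2%) rose and 1768 (8.89%) fell in TXdXicCast. Without replicate 2 these numbers were 491 and 309 in TXdXicB6 and 995 and 573 in TXdXicCast, and the overlaps were not recomputed without it. Of the 3004 genes that rose in TX1072 and were tested in both, 1285 also rose in TXdXicB6, which is 42.8% of the TX1072 genes and 77.7% of the genes of that line, and 2 fell. In TXdXicCast 1700 also rose, 56.6% and 85.1%, and none fell. Of the 2219 that fell in TX1072, 933 also fell in TXdXicB6 (42.0% and 63.9%) and 1160 in TXdXicCast (52.3% and 66.6%), with 0 and 1 in the opposite direction.

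Genes of the streak also rose in both lines. Of 17 tested there 9 rose in TXdXicB6 and 11 in TXdXicCast, and none fell in either. T had 1.69, 1.90 and 1.57 CPM at day 3 and 14.01, 25.3 and 20.6 CPM at day 4 in TXdXicB6 (log2 fold change 3.52). In TXdXicCast it had 2.62, 1.52 and 4.24 CPM at day 3 and 18.7, 11.4 and 90.8 CPM at day 4 (3.80), and replicate 3 was far above the others, as it was for Foxa2 (3.12, 2.49 and 14.7 CPM at day 4). Acta2 rose by 4.25 and 3.66 on the log2 scale in TXdXicB6 and TXdXicCast. Of the 67 genes that appear last and were tested there, 27 and 35 also rose and none fell. Of the 48 that leave last, 43 and 40 also fell and none rose.

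The amino acid stress genes differed in the number called. In TXdXicB6 1 of 16 fell and in TXdXicCast 3 of 16, with medians of -0.18 and -0.36. Slc7a11 had 6.23, 7.16 and 8.01 CPM at day 3 and 2.92, 3.71 and 3.35 CPM at day 4 in TXdXicB6 (edgeR adjusted p = 0.0529), where the days did not overlap. Some other lists also held fewer calls in TXdXicB6 than in TX1072. In TXdXicB6 4 of 22 lateral and cardiac mesoderm genes and 9 of 24 cholesterol genes rose, and 3 of 12 two-cell-like genes fell. In TXdXicCast the numbers were 9, 15 and 8. Others did not, with 15 of 19 smooth muscle and actin genes and 10 of 15 trophoblast genes higher in TXdXicB6. Differences between the lines were not tested, and in such a comparison line, kit and instrument cannot be told apart.

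**Figure D5:**
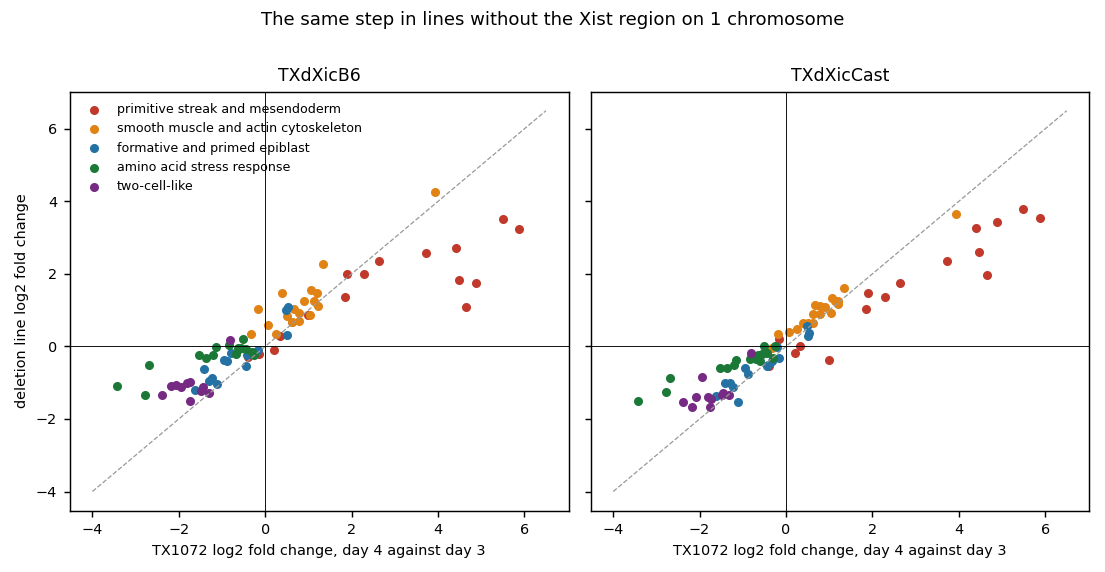
Log2 fold change from day 3 to day 4 in TX1072 (horizontal axis) against that in TXdXicB6 (left) and TXdXicCast (right) for members of 5 gene lists tested in both. The dashed line marks equal change. Of 16 streak genes (red) 14 and 15 lie below the line, of 19 smooth muscle genes (orange) 16 lie above it in each line, and of 16 amino acid stress genes (green) 16 and 15 are closer to 0 in TXdXicB6 and TXdXicCast than in TX1072. Blue points are formative genes and purple points two-cell-like genes.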

How the data were processed

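The deposited bulk files hold raw counts per gene, in all and per allele. The authors made them by aligning read pairs with STAR (2.5.2b, per the submitters' processing notes) to GRCm38/mm10 masked at B6 and Cast variants, by counting uniquely aligned reads with featureCounts and by assigning alleles with SNPsplit. Columns were matched to samples by name, and 92 ERCC rows (all 0) were left out. edgeR (4.0.16, R 4.3.3) was fitted to all 15 TX1072 libraries (TMM factors, filterByExpr, quasi-likelihood test, two-sided, Benjamini-Hochberg adjusted p of 0.05), with separate fits for the 30 deletion-line libraries and for the 30 allele columns (at least 10 allele-specific counts in 3 libraries and 5% of counts on each allele). On simulated data for TX1072 day 4 against day 3 (18424 genes, 95 changed genes scored at each fold), edgeR recovered 68.4% of 2-fold and 89.5% of 4-fold changes. Unchanged genes were 6.25% of its calls and 13.9% of those of DESeq2. All other genes were given the same mean on every day, and no replicate effect was simulated. These shares therefore need not hold for the data, where 27.8% of genes were called. Alternatives were DESeq2 (1.42.0), other scaling and filters, left-out libraries and a replicate block. Replicates were differentiated on different days per the study's reporting summary. Deviations of same-numbered day 3 and day 4 libraries correlated at 0.312, 0.111 and 0.105, and those of differently numbered libraries at -0.222 to 0.115. Over all days the median correlation was 0.168 for 30 same-numbered pairs and -0.090 for 60 other pairs. The numbers were therefore taken to pair the samples in the replicate block. The main edgeR counts and p-values come from the fit without this block. Deviations were taken from the mean of each day. This makes other pairs correlate negatively where same-numbered pairs correlate positively, so the values of the other pairs are not separate evidence.

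The genes named were the 12 largest increases and decreases whose replicates did not overlap and whose counts averaged 100 or more (predicted models left out, 0 and 2), the 5 largest changes in CPM, those that appear or leave last, up to 5 members per list by p, and the 5 smallest p of the allele and step contrasts. Other genes named within a list were chosen after their values were seen. Members and lists were chosen with earlier results of these data known. Gene names are those of the count table, and sequences are from RefSeq (GRCm38.p6). Some genes that this rule names are not reported here.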

Additional observations from a re-analysis of the deposited data

Results flagged for a closer look

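For 1198 genes the last step differed from the step before in TX1072 by a test of the difference, and for 132 to 453 when 1 replicate was left out on all days. The 5 with the smallest p were Tagln, Myl9, Gm13078, Agpat3 and Zscan4a. The difference was -4.36 on the log2 scale for Tagln and -3.38 for Myl9, which had risen from day 2 to day 3. It was -6.62 for the predicted gene Gm13078 and -6.06 for Zscan4a, which rose to day 3 and fell after it. It was 1.91 for Agpat3, which rose in the last step.

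For 154 genes the alleles changed unequally from day 3 to day 4 by the interaction of allele and day, and for 31 to 77 when 1 replicate was left out. The B6 to Cast log2 ratio changed by -0.95 for Plekhf2, by -1.24 for Sec24d, by -0.96 for Gpd2 and by -0.61 for Spp1, all toward Cast. It changed by 1.11 for Zc3hav1, toward B6.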

How the results depend on the processing

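At an adjusted p of 0.01 the numbers of higher and lower genes were 1916 and 1166, and at a fold change of at least 2 they were 1037 and 903. Leaving out 1 library gave 2219 to 2604 higher and 1552 to 1828 lower genes in TX1072. Leaving out 1 replicate gave 2590 to 3838 genes from day 2 to day 3, 132 to 453 for the difference between the last steps (508 without day 3 replicate 2 alone and 1053 without day 4 replicate 1 alone, both chosen after seeing the data), 491 to 1272 higher and 309 to 1118 lower in TXdXicB6, 995 to 1525 and 573 to 1055 in TXdXicCast, and 31 to 77 for alleles. With the replicate block 3330 genes were higher and 2706 lower, and no call was lost among list members, while 46 further members gained one, so that most list counts were slightly larger (the FGF list had 6 higher genes and matrix glycoproteins 13). Beside the list counts given with it, the block changed 6 calls among the genes of the naming rule (Amotl2, Ccnb1, Hoxd1, Nap1l2, Top2a and Tyms, all gained) and, of the other genes named in the report, that of Gm23935 (edgeR adjusted p = 0.0915). Of the 329 genes that the naming rule gives, none changed direction under any alternative that was run. None lost its call under RLE or autosomal TMM factors. Under DESeq2 12 lost their call and 6 gained one. Without 1 library 18 to 23 lost their call (23 without day 3 replicate 2, Lars2, Eef1a1 and Npm1 among them). Of 499 further list members none changed direction, 37 to 52 changed from called to not called without 1 library, and those named in the report were Evx1, Chrd, Bmp4, Gata4, Meis1, Cldn6 and Tbx3, with Hhip below. Gata4 also lost its call under RLE and autosomal TMM factors, DESeq2 and no filter on low counts. The X-linked differences in share kept their sign, but that in all counts ranged from 0.0521 to 0.303 percentage points without 1 library, that in the B6 share from -1.48 to -1.22 and that in the Xist B6 share from -5.49 to -1.30. Genes under 1 CPM rest on few counts per library, which limits what can be said of Mesp1, Sox17 and Gata6.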

Other observations

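Of 17 tested genes of antigen presentation and interferon response 8 rose and 1 fell (median 0.45), or 9 and 2 with replicates as a block, beside 16.0% and 11.9% over all tested genes. The class I genes H2-K1 and H2-D1 and their light chain gene B2m rose by 1.13, 1.18 and 0.84 on the log2 scale, and the peptide transporter gene Tap1 rose by 1.20. The number that rose was 6 without day 3 replicate 2, and none fell. Of 29 tested imprinted genes 10 rose and 7 fell. Igf2, the growth factor beside H19, rose by 1.51, and Plagl1, a zinc finger gene, rose by 1.63. The noncoding RNAs Meg3, Rian and Mirg, which lie in a single imprinted domain, fell by 0.98, 0.86 and 0.85 on the log2 scale.

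Of 18 tested Notch and Hedgehog genes 3 rose and 6 fell, although the median log2 fold change was 0.19. The Hedgehog receptor and target Ptch1 had 114, 134 and 103 CPM at day 3 and 35.8, 51.4 and 45.2 CPM at day 4, and fell by 1.40 on the log2 scale. Gli1 and Hhip, further Hedgehog targets, fell by 0.90 and 1.63, and Hhip lost its call without day 3 replicate 1 or day 4 replicate 2. Of 26 tested genes of glycolysis and hypoxia 8 rose and 2 fell (1 without day 3 replicate 2), and day 4 replicate 1 was the highest library for 7 of those 8. Of 18 tested p53 targets 6 rose and 1 fell, led by Perp, a desmosome protein gene (log2 fold change 1.76), and 3 rose without day 3 replicate 2. Of 14 tested lysosome and apolipoprotein genes 5 rose and 2 fell. None of the 8 tested mitochondrially encoded genes and none of the 5 tested histone genes was called by edgeR.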
